A study of Mus musculus with 16 samples.

Results

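The cytosolic ribosomal proteins are the protein subunits of the ribosome that translates nuclear-encoded mRNA, and their transcripts were followed in neural stem cells (NSC) in which the lncRNA *RUS* had been targeted. Members were the rows of the day 5 and day 7 expression tables with an Rpl or Rps symbol followed by a number and at most 1 of the letters a, x, l or y, together with *Rplp0*, *Rplp1*, *Rplp2* and *Rpsa*, whose TPM averaged 10 or more on 1 or both days. Of 55471 rows, 83 matched the symbols and 80 passed the level, 48 of the large 60S subunit and 32 of the small 40S subunit. All 80 passed on day 5 and 79 on day 7. The symbols and the level, averaged over both shRNAs, chose them. *Rpl6l* passed the level only through shRNA-RUS on day 5, where it averaged 12.2 TPM against 8.54 TPM in shRNA-CON, so that its day 5 values, and the contrasts that use them, are a description. TPM is a transcript level scaled by transcript length, and it sums to 1000000 in each library.

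The NSC came from E15-16 cortices of C57BL/6 mouse embryos, pooled over both sexes, and were kept in medium with FGF2, serum and B27 until differentiation was started on day 5 in Neurobasal medium with B27. All cultures carried a lentivirus, with a scrambled shRNA (shRNA-CON) or an shRNA against *RUS* (shRNA-RUS). PolyA RNA was sequenced on day 5 and on day 7 from 4 libraries of each shRNA, 16 in all. The labels call the 4 libraries of a group separate experiments, give no batch or date, and do not say whether these were separate cell preparations, so that p-values measure the spread between these libraries, which may be technical. Day and anything else that differed between the collections cannot be told apart.

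The targeted transcript, *Gm20754*, was listed at 0.24, 0.11, 0.18 and 0.16 TPM with shRNA-CON and at 0.05, 0, 0.12 and 0.32 TPM with shRNA-RUS on day 5. On day 7 it was at 0.7, 0.72, 0.26 and 0.54 TPM against 0.54, 0.38, 0 and 0.04 TPM. Its groups overlapped on both days, and the knockdown was not called (limma, adjusted p = 0.519 on day 5 and 0.114 on day 7), at a level close to the lowest tested. By RT-qPCR, the authors report a reduced *RUS* level in shRNA-RUS cells. Summed NSC and radial glia markers (*Nes*, *Sox2*, *Pax6*, *Vim*, *Fabp7*, *Slc1a3*, *Hes5*) reached 12700 to 13967 TPM with shRNA-CON and 16450 to 17935 TPM with shRNA-RUS on day 5, and 7259 to 7695 against 7721 to 8451 TPM on day 7. *Vim* made up most of these sums, and the single markers went both ways. On day 7, 2 of 7 were higher (*Vim*, 0.17 ± 0.05, and *Pax6*, 0.20 ± 0.05) and 3 lower (*Nes*, -1.19 ± 0.07, *Hes5*, -0.83 ± 0.17, and *Slc1a3*, -0.15 ± 0.05), and *Nes* was also lower on day 5 (-0.87 ± 0.07). Markers of neurons, astrocytes, the oligodendrocyte lineage and microglia were all detected, and among the fibroblast and vascular markers *Cldn5* was at 0 in shRNA-CON on day 7.

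A ribosome holds 1 copy of most of these proteins, and cells make them in matched amounts. Most of their mRNAs begin with a run of pyrimidines, the 5′ terminal oligopyrimidine (TOP) motif, through which mTOR signalling and the RNA-binding protein Larp1 set their translation and storage. Proliferating progenitors are known for high ribosome production. In bulk RNA, fewer cells of a type and less RNA per cell cannot be told apart.

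To show how the starts of the members differ, the 30 bases around the start annotated by RefSeq (build GRCm38.p6) are given for the member that fell most (*Rpl18*), for the ones next to it by fold change on day 7 that had a promoter entry (*Rpl39*, *Rpl41*, *Rpl27a*), for *Rps3*, whose knockdown effect differed between the days with the smallest p, and for *Rpl7a*, with the longest run. The capitals mark the part within these 30 bases of the longest run of C and T near the start, and each sequence reads 5′ to 3′ on the strand of the gene.
Rpl18 (chr7:45718056-45718085, plus strand): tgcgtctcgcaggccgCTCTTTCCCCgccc
Rpl39 (chrX:37085208-37085237, minus strand): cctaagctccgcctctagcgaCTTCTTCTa
Rpl41 (chr10:128549154-128549183, minus strand): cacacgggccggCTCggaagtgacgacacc
Rpl27a (chr7:109519180-109519209, plus strand): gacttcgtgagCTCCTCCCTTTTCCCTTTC
Rps3 (chr7:99483695-99483724, minus strand): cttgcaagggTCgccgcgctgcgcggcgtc
Rpl7a (chr2:26910792-26910821, plus strand): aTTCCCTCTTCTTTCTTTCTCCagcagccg

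The run is 10 bases in *Rpl18*, 8 in *Rpl39*, 3 in *Rpl41*, 20 in *Rpl27a*, where it goes on past the window, 2 in *Rps3* and 21 in *Rpl7a*, so that members with a large fall on day 7 had long runs as well as short ones. Promoter entries (250 bases before to 50 after the start) were found for 58 of the 80 members. Their longest run had a median of 7.5 bases, against 5 bases over all 27025 genes with an entry, and reached 8 bases or more in 50% of members against 16.1% of all. Near the start, on the sense strand, CTTTC stood in 31% of members against 6.44% of all genes, and CTTTT in 12.1% against 5.03%. On either strand of the whole entry, CCGGAAG, an ETS-type word, stood in 41.4% against 9.93%, TCGCGAGA in 17.2% against 1.13%, AAGATGGC, a YY1-type word, in 8.62% against 3.19%, and TATAAA in 12.1% against 15.7%. These matches are a description of the letters in these windows and were not set against binding data.

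The members were among the most abundant transcripts of the cultures, with median levels of 786 TPM on day 5 and 657 TPM on day 7. *Rpl41*, the smallest of the ribosomal proteins, had the highest mean, at 2377 TPM on day 5 and 1997 TPM on day 7, followed by *Rplp1* of the stalk that recruits elongation factors, at 1937 and 1571 TPM. The 3 members just above the level of 10 TPM were *Rpl6l* (10.4 and 8.02 TPM), *Rps4l* (12.9 and 11.2 TPM) and *Rpl32l* (14.4 and 12.2 TPM), far below the next ones, which were *Rpl27a* on day 5 (338 TPM) and *Rps27l* on day 7 (299 TPM). GENCODE vM21 annotates these 3 as processed pseudogenes, *Rps4l* as a transcribed one, and the other 77 members as protein-coding. Just below the level of 10 TPM were *Rpl3l* (0.608 and 0.356 TPM), *Rpl39l* (0.121 and 0.163 TPM) and *Rpl10l* (0.005 TPM on both days), of which *Rpl3l* is known from striated muscle and *Rpl10l* and *Rpl39l* from testis. Levels were set side by side across 2 tables that were deposited separately.

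Together the 80 members held 5.91, 6.51, 6.24 and 6.73% of the TPM in shRNA-CON on day 5, a mean of 6.35% ± 0.354 (SD, n = 4). In shRNA-RUS on day 5 they held 7.34, 7.18, 7.56 and 6.22%, a mean of 7.07% ± 0.591 (SD, n = 4). The first 3 shRNA-RUS libraries lay above all shRNA-CON libraries, and the fourth lay among them. On day 7 the share was 6.22, 5.99, 5.86 and 5.51% in shRNA-CON (5.89% ± 0.296, SD, n = 4) and 5.10, 4.95, 5.02 and 5.07% in shRNA-RUS (5.03% ± 0.0634, SD, n = 4). All shRNA-RUS libraries then lay below all shRNA-CON libraries. Relative to shRNA-CON the mean share was 11.4% ± 11.2 (SD) higher on day 5 and differed by -14.6% ± 4.43 (SD) on day 7. After division by the library factors used in the tests, these differences were 24.5% and -14.8%. The mitochondrially encoded transcripts took 6.61% of the TPM with shRNA-CON on day 5 and 5.69% with shRNA-RUS, and 7.58% and 8.28% on day 7.

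**Figure D1:**
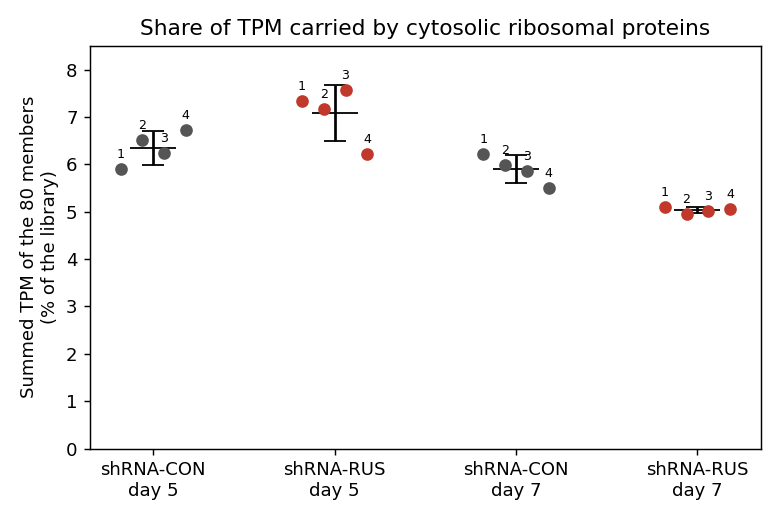
Summed TPM of the 80 members as a percentage of all TPM (y axis) in each of the 16 libraries, grouped by shRNA and day, with replicate numbers, the group mean and its SD. On day 5, shRNA-RUS replicate 4 (6.22%) lies among the shRNA-CON libraries, and on day 7 the shRNA-RUS libraries (4.95 to 5.10%) lie below the shRNA-CON libraries (5.51 to 6.22%).

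On day 5, the day on which differentiation was started, ribosomal protein transcripts were mostly more abundant in shRNA-RUS than in shRNA-CON. By limma with Benjamini-Hochberg adjustment over all genes and a threshold of 0.05, 45 of 80 members were higher, 1 was lower and 34 were not called. Over all 22581 genes tested, 14.8% were called higher and 17.9% lower. The median log2 fold change was 0.31 over the members and -0.06 over all genes. The 60S members gave 29 higher and 1 lower with a median of 0.33, and the 40S members 16 higher with a median of 0.26. In 24 members (30%), with *Rpl6l* among them as a description, every shRNA-RUS library exceeded every shRNA-CON library, against 14.1% of all genes.

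The values that follow are TPM scaled by a factor per library, fitted within the day as a median ratio over 13993 genes. *Rpl13a*, which also takes part in interferon-dependent translational control, was at 1022, 1156, 1118 and 1235 scaled TPM in the day 5 shRNA-CON libraries and 1755, 1677, 1777 and 1282 in those of shRNA-RUS. All shRNA-RUS libraries were higher, the fourth by the least (log2 fold change 0.51 ± 0.11 SE, adjusted p = 0.00692, limma). *Rpl23a*, which sits at the exit of the nascent chain tunnel, was at 1039, 1321, 1239 and 1283 against 1851, 1709, 1904 and 1485, again without overlap (0.51 ± 0.10, adjusted p = 0.00453, limma). *Rps21* of the 40S subunit was at 562, 643, 618 and 740 against 1088, 988, 1039 and 708, with the fourth shRNA-RUS library inside the shRNA-CON range (0.56 ± 0.14, adjusted p = 0.0125, limma). The low *Rpl6l*, 1 of the annotated pseudogenes, was at 5.60, 8.12, 8.04 and 10.7 against 11.8, 12.4, 16.4 and 10.8. These values also carried it past the level limit. Its call as higher on day 5 is therefore a description, and its p-value is not given. Of the other 79 members, 44 were called higher and 1 lower.

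The stalk proteins did not all pass the test on day 5. *Rplp0*, the stalk base, was at 958, 987, 1011 and 1030 scaled TPM in shRNA-CON and 1448, 1458, 1402 and 1129 in shRNA-RUS, and rose by 0.44 ± 0.09 on the log2 scale (adjusted p = 0.00399, limma). *Rplp1* was at 1272, 1585, 1605 and 1839 against 2595, 2762, 2682 and 1377, so that 3 libraries stood far above the shRNA-CON range and 1 inside it (0.54 ± 0.22, adjusted p = 0.0901, limma). *Rpl36* had the same form, with 498, 657, 653 and 860 against 1192, 1147, 1197 and 578 (0.59 ± 0.25, adjusted p = 0.0998, limma).

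*Rpl18* was the only member called lower on day 5. It was at 703, 816, 721 and 888 scaled TPM in shRNA-CON and 642, 626, 643 and 518 in shRNA-RUS, with no overlap (-0.36 ± 0.10, adjusted p = 0.0184, limma). This call was lost without shRNA-CON replicate 2, at -0.34. The other members with a negative fold change were *Rps4l* (-0.27 ± 0.24), *Rpl39* (-0.13 ± 0.11) and *Rps27l* (-0.08 ± 0.10), none of which passed the test.

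The day 5 count depended on single libraries, on the scaling and on the fit. Without shRNA-RUS replicate 4 it was 72 higher, and it was 23 without shRNA-CON replicate 1, 21 without shRNA-CON replicate 3, and 24, 23 and 21 without shRNA-RUS replicates 1, 2 and 3. Of all genes 17.4% were higher without shRNA-RUS replicate 4, and 11.7 to 13.2% without each of the other libraries named. With no filter on low genes, with 75th percentile scaling and with eBayes without a trend, 27 were higher (33.8%) in each case, against 8.55, 10.7 and 12.8% of all genes. With TPM as deposited, 23 were higher (28.8%, against 7.83% of all genes) and 3 lower (3.75% against 26.7%), and the median fell to 0.16 while that of all genes fell to -0.21. With quantile normalization, 8 were higher (10%) and 3 lower (3.75%), with medians of 0.05 and 0.01, while 14.8% of all genes were higher and 14.7% lower, so that under this scaling the share of members called higher was not above that of all genes. The summed markers of astrocytes, neurons and the oligodendrocyte lineage also separated the shRNAs on day 5. Those of microglia and of fibroblast and vascular cells overlapped. Astrocyte markers summed to 3859 to 4302 TPM with shRNA-CON and 4910 to 5233 TPM with shRNA-RUS, neuron markers to 342 to 465 against 290 to 328 TPM, and oligodendrocyte lineage markers to 236 to 311 against 151 to 215 TPM. By gene, 3 of 7 NSC markers were higher and 2 lower, 2 of 5 astrocyte markers were higher, 2 of 7 neuron markers were higher and 2 lower, and 3 of 6 oligodendrocyte lineage and 2 of 6 microglia markers were lower. The part of these markers' cells in the result was not tested.

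**Figure D2:**
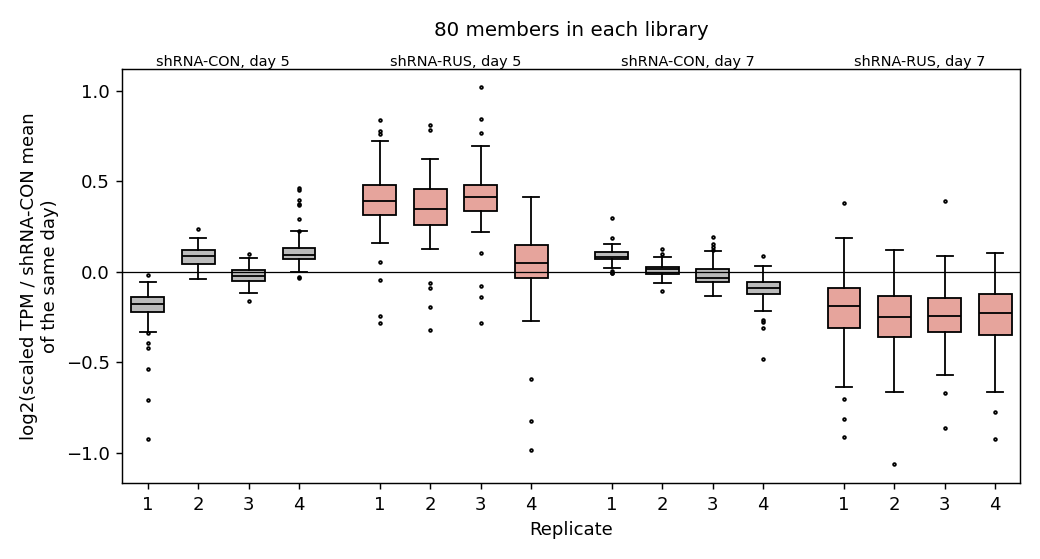
Log2 ratio of each of the 80 members to its shRNA-CON mean of the same day, from scaled TPM (y axis), as 1 box per library (median, quartiles, whiskers to 1.5 times the interquartile range, points beyond). The median was 0.39, 0.35 and 0.41 in shRNA-RUS replicates 1 to 3 and 0.05 in replicate 4 on day 5, and lay between -0.25 and -0.19 in the 4 shRNA-RUS libraries of day 7.

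On day 7, after growth factor withdrawal, the direction was the opposite. None of the 80 members was called higher in shRNA-RUS, 59 were called lower and 21 were not called. Over the 24606 genes tested, 23.4% were called higher and 25.8% lower. The median log2 fold change was -0.22 over the members and -0.03 over all genes. The 40S members gave 28 lower of 32 with a median of -0.26, and the 60S members 31 of 48 with a median of -0.20. In 54 members (67.5%) every shRNA-RUS library lay below every shRNA-CON library, against 24.7% of all genes.

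*Rpl18* fell most. It was at 690, 614, 648 and 614 scaled TPM with shRNA-CON on day 7 and at 341, 307, 353 and 339 with shRNA-RUS, with no overlap (-0.94 ± 0.05, adjusted p = 9.82e-07, limma). *Rpl39*, a small protein in the wall of the exit tunnel, was at 404, 413, 447 and 363 against 262, 267, 256 and 257 (-0.64 ± 0.06, adjusted p = 1.37e-05, limma). *Rpl41* was at 2656, 2438, 2353 and 2202 against 1585, 1521, 1622 and 1583 (-0.61 ± 0.05, adjusted p = 1.45e-05, limma). These groups did not overlap for any of these 3 members.

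*Rpl27a* was at 401, 406, 434 and 323 scaled TPM on day 7 with shRNA-CON and at 240, 258, 270 and 259 with shRNA-RUS (-0.60 ± 0.08, adjusted p = 0.000259, limma). On day 5 the same member varied more than any other in shRNA-RUS, with a coefficient of variation of 32.9%. *Rps4l*, a relative of *Rps4x* annotated as a transcribed processed pseudogene, was at 15.4, 13.1, 13.7 and 11.9 against 7.70, 8.80, 9.37 and 9.63 (-0.60 ± 0.10, adjusted p = 0.000556, limma). *Rps27l*, a paralog of *Rps27* and a known p53 target, was at 380, 365, 331 and 330 against 253, 247, 249 and 233 (-0.51 ± 0.05, adjusted p = 3.07e-05, limma).

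*Rpl5* and *Rpl11*, which bind the 5S rRNA and, when free, Mdm2, are given for this role and were chosen after their values were seen. *Rpl11* was at 992, 883, 856 and 855 scaled TPM on day 7 with shRNA-CON and at 647, 644, 648 and 618 with shRNA-RUS (-0.49 ± 0.05, adjusted p = 3.28e-05, limma). *Rpl5* differed by -0.23 ± 0.04 (adjusted p = 0.000873, limma). Neither was called on day 5.

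Among the 21 members that did not pass the test on day 7, *Rpl23a*, with 996, 969, 877 and 878 scaled TPM against 1060, 1000, 988 and 1000, had the largest positive value (0.12 ± 0.05, adjusted p = 0.0648, limma). *Rplp0* (0.04 ± 0.04), *Rpl10* (0.02 ± 0.04), which joins the 60S subunit late, and *Rpl13a* (0.00 ± 0.04) had smaller positive values. The low *Rpl6l*, at 7.76, 7.06, 7.50 and 8.08 scaled TPM against 9.89, 8.26, 9.98 and 5.63, lay between *Rpl23a* and *Rplp0*, with a wide error (0.12 ± 0.17). *Rpl23a*, *Rplp0*, *Rpl10* and *Rpl13a* had all been called higher on day 5.

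With quantile normalization 44 members (55%) were lower and 7 (8.75%) higher on day 7, against 24.5% and 24.6% of all genes, and 35 (43.8%) were lower where a fold of at least 1.2 was also asked for, against 22.0% of all genes. The proliferation markers (*Mki67*, *Top2a*, *Pcna*, *Mcm2*, *Ccnb1*, *Cdk1*) were lower in 6 of 6 on both days, with summed levels of 623 to 665 TPM on day 5 with shRNA-CON and 315 to 360 TPM with shRNA-RUS, and 724 to 737 against 294 to 331 TPM on day 7. Microglia markers were lower in 6 of 6 on day 7, with sums of 192 to 206 TPM in shRNA-CON and 83.9 to 106 TPM in shRNA-RUS. Astrocyte markers summed to 2691 to 2755 TPM and 3428 to 3602 TPM on that day, where *Aldoc* (0.61 ± 0.03) and *Gfap* (0.35 ± 0.05) were higher, *S100b* (-0.54 ± 0.08) was lower and *Aqp4* and *Gja1* were not called. Of the oligodendrocyte lineage markers 5 of 6 were lower (396 to 444 against 258 to 284 TPM), and of the neuron markers 4 of 7 were higher and 1 lower (739 to 824 against 748 to 871 TPM). Fibroblast and vascular markers summed to 22.35 to 24.87 TPM against 36.85 to 41.4 TPM, with 3 of the 7 tested higher and 1 lower. The part of these cells in the change of the members was not tested.

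**Figure D3:**
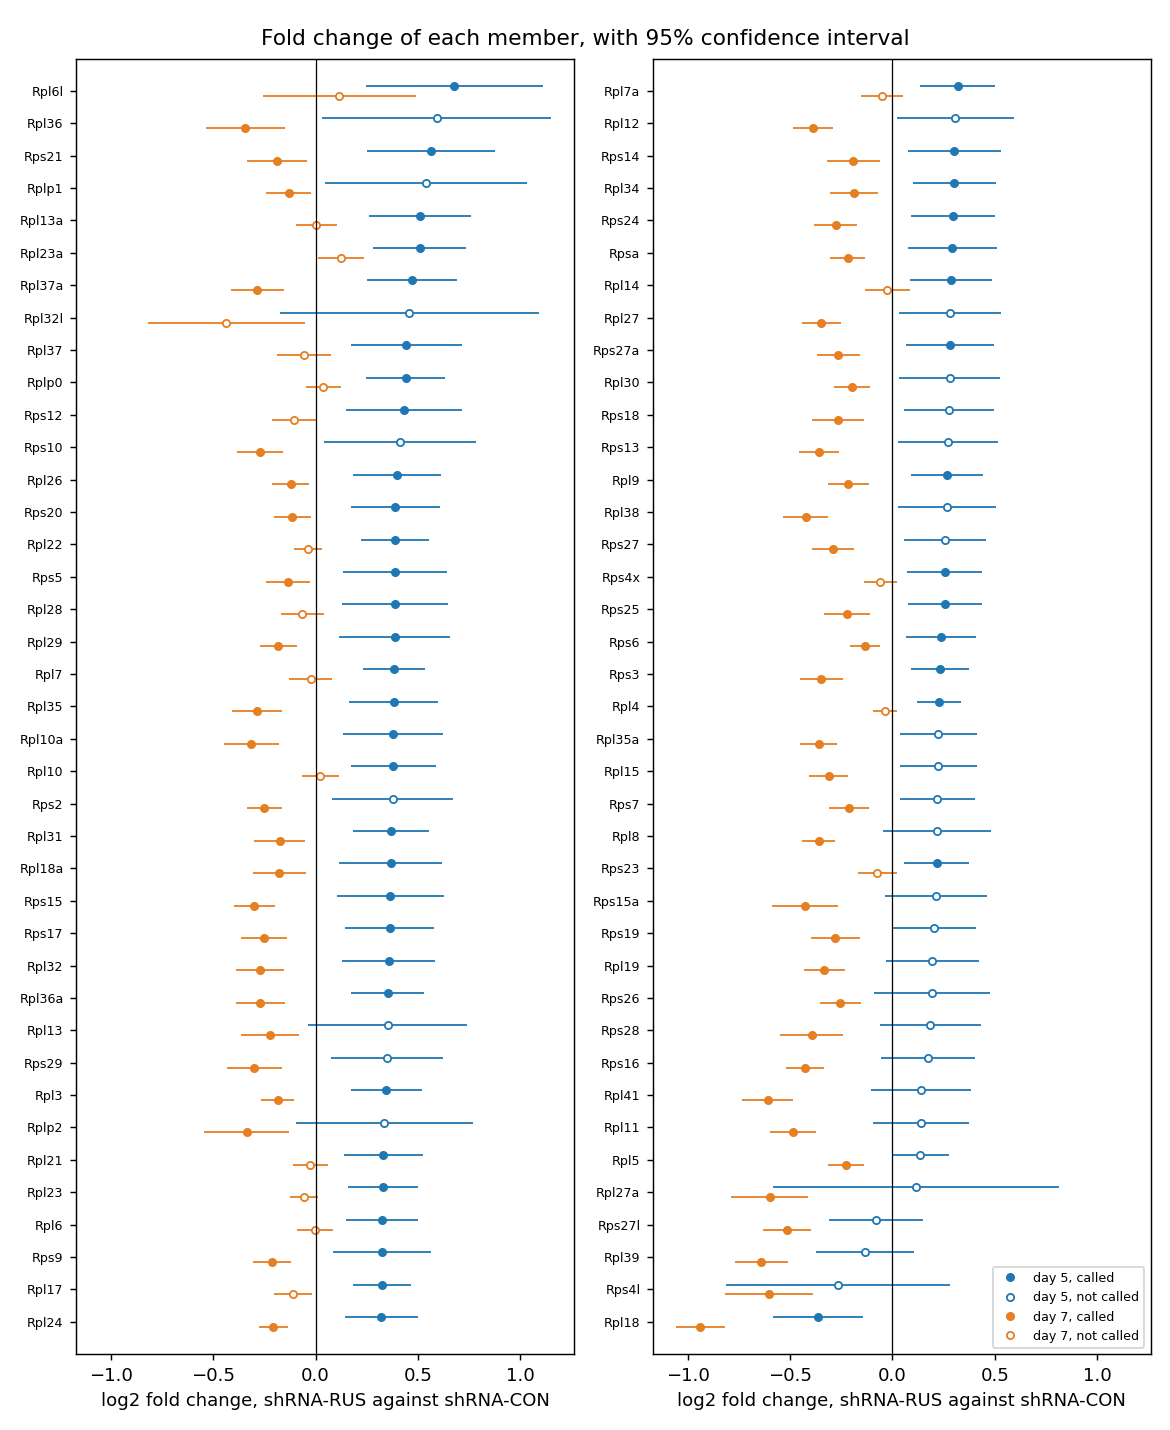
Log2 fold change of shRNA-RUS against shRNA-CON (x axis) for 78 of the 80 members, ordered by day 5, with the 95% confidence interval of limma, filled where called. Most day 5 points lie above 0 (74 of 78) and most day 7 points below 0 (73 of 78), with *Rpl18* below 0 on both days. The day 5 point of *Rpl6l* is a description, since the same values carried it past the level for members.

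The 2 subunits moved almost in step, and the ratio of their summed TPM shifted slightly. The 60S to 40S ratio was 1.44, 1.42, 1.44 and 1.44 on day 5 with shRNA-CON and 1.47, 1.49, 1.47 and 1.44 with shRNA-RUS. On day 7 it was 1.43, 1.44, 1.42 and 1.43 against 1.45, 1.47, 1.47 and 1.46. The day 7 groups did not overlap, and on day 5 the fourth shRNA-RUS library lay within the shRNA-CON range. No test was made of this summed score.

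Comparing the knockdown effects on the 2 days member by member, 26 members were called higher on day 5 and lower on day 7, 19 (*Rpl6l* among them) higher and then not called, 32 not called and then lower, 1 (*Rpl18*) lower on both, and 2 not called on either. The day 5 call of *Rpl6l* is a description, since the same values carried it past the level. No member was lower and then higher. Higher and then lower held for 32.5% of members and 1.71% of the 21870 genes tested on both days. A positive fold change on day 5 and a negative one on day 7 held for 71 members (88.8%) and for 16.1% of the genes tested on both days. With TPM as deposited it held for 67 members and with quantile normalization for 36. The share over all genes was not counted under these scalings, so these counts cannot be set against it. The fold changes of the 2 days, which come from separate libraries, ran in a similar order over the 80 members (Pearson r = 0.71, Spearman rho = 0.55, as a description).

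Whether the effect differed between day 5 and day 7 was then tested for each member in 1 fit over the 16 libraries. In 76 of the 79 members other than *Rpl6l* the effect was more negative on day 7 than on day 5, against 14.6% of the 23789 genes tested, and none was more positive, against 15.2%. The median difference was -0.55 over the members and 0.04 over all genes. With TPM as deposited these medians were -0.38 and 0.19, with 66 members (82.5%) called against 8.63% of all genes. *Rps3*, which lines the mRNA entry of the 40S subunit, had the smallest p. On day 5 it was at 587, 657, 593 and 660 scaled TPM with shRNA-CON and 758, 727, 758 and 686 with shRNA-RUS, and on day 7 at 577, 559, 542 and 506 against 447, 424, 413 and 415, with library factors fitted over the 16 libraries. The shRNA-RUS libraries lay above shRNA-CON on day 5 and below it on day 7 (difference -0.59 ± 0.08, adjusted p = 5.43e-05, limma).

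The largest difference was that of *Rpl36* (-0.95 ± 0.28), followed among the called members by *Rps21* (-0.77 ± 0.16), *Rpl37a* (-0.77 ± 0.12) and *Rpl41* (-0.76 ± 0.12). Those of *Rpl35* (-0.68 ± 0.12) and *Rpl36a* (-0.63 ± 0.10) were also called. It was smaller for *Rpl4* (-0.27 ± 0.05), *Rps23* (-0.30 ± 0.08) and *Rpl14* (-0.32 ± 0.11), also called. The 3 others that were not called were *Rpl32l* (-0.91 ± 0.36), *Rpl27a* (-0.73 ± 0.35) and *Rps4l* (-0.35 ± 0.28). With quantile normalization 30 members (37.5%) were called, all with a negative difference, against 14.3% of all genes, and the medians were -0.17 and 0.02.

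**Figure D4:**
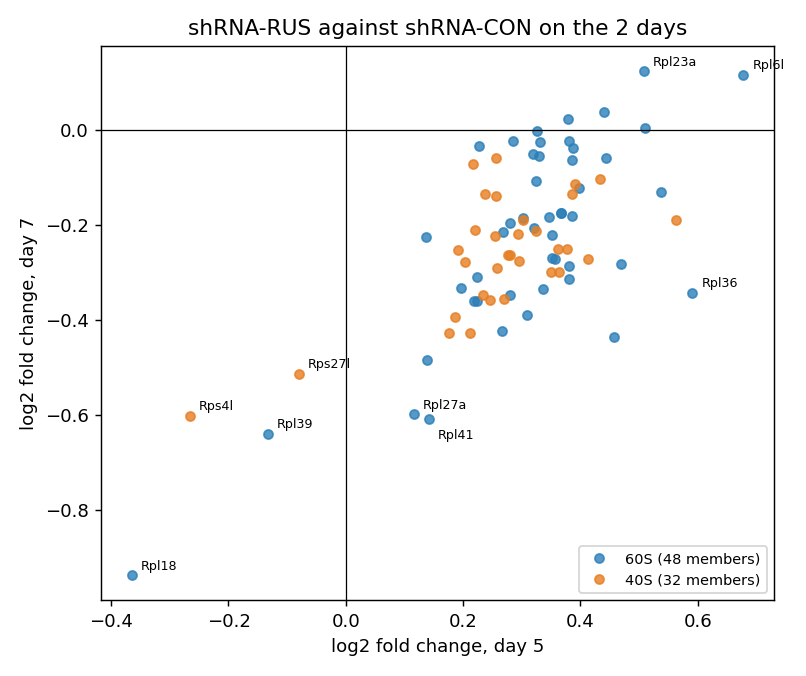
Log2 fold change of shRNA-RUS against shRNA-CON on day 5 (x axis) and day 7 (y axis), 1 point per member, coloured by subunit. Of the 80 points, 71 lie to the right of 0 and below 0, and *Rpl18* lies apart at -0.36 and -0.94.

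Between day 5 and day 7 the members were compared within each culture, and the size of the change depended on the scaling in both. In shRNA-CON, 50 of 80 were lower on day 7 and none was higher, with a median of -0.26, while 21.6% of all genes were called lower and 26.9% higher and the median of all genes was 0.07. In shRNA-RUS all 79 members other than *Rpl6l* were lower, with a median of -0.80, while 25.8% of all genes were lower and 35% higher and the median was 0.13. These contrasts share libraries with those above and add no independent evidence. They also rest on tables deposited separately.

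The largest decrease in shRNA-CON was that of *Rpl23a*, from 1135, 1435, 1343 and 1393 scaled TPM on day 5 to 920, 895, 810 and 818 on day 7 (-0.62 ± 0.08, adjusted p = 1.24e-05, limma). *Rps24*, a 40S protein, fell by 0.58 in shRNA-CON and by 1.17 in shRNA-RUS on the log2 scale. *Rpl36a* fell by 0.55 and by 1.18, and *Rpl3*, at the peptidyl transferase center, by 0.48 and by 1.03. *Rps27* was at a mean of 1165 scaled TPM on day 5 and 1236 on day 7 in shRNA-CON and was not called, and in shRNA-RUS it went from 1389 to 1000 (-0.47 ± 0.07, called). *Rpl10* changed least in shRNA-RUS, from 926 to 736 (-0.33 ± 0.07, called).

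The scaling set how many members were called between the days. In shRNA-CON, 31 were lower (38.8%, against 14.4% of all genes) and 2 higher with TPM as deposited, where the median of all genes was 0.20 and that of the members -0.11, and 20 were lower (25%) and 8 higher (10%) with quantile normalization. Under the latter, 24.3% of all genes were lower and 23.8% higher, and the medians of members and all genes were both -0.01. In shRNA-RUS, 77 were lower (96.3%, against 14.9% of all genes) with TPM as deposited, where the median of all genes was 0.41 and that of the members -0.48. With quantile normalization 51 (63.8%) were lower and 3 higher, against 28.8% and 29.4% of all genes, and the medians were 0.00 over all genes and -0.19 over the members. A turn from lower to higher under quantile normalization was looked for only in the 32 named members. It was found for *Rpl10*, *Rps23* and *Rps27* in shRNA-RUS, and for *Rpl35a* and *Rps3* in shRNA-CON.

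Transcripts that work with these proteins were counted beside them, from lists chosen by function. Their shares are to be read against all genes, of which 14.8% were higher and 17.9% lower on day 5, and 23.4% and 25.8% on day 7. *Fau* and *Rack1* are ribosomal proteins under other names. On day 5 *Fau* (0.47 ± 0.13) was higher and *Rack1* (0.19 ± 0.08) was not called, and on day 7 both were lower, at -0.18 and -0.41. Of the 78 mitochondrial ribosomal proteins, 27 were higher (34.6%) and 3 lower on day 5 (median 0.18), and 56 were lower (71.8%) and none higher on day 7 (median -0.26). From day 5 to day 7, 54 of these were lower (69.2%) and 1 higher in shRNA-CON, against 21.6% and 26.9% of all genes. In shRNA-RUS all 78 were lower (median -0.85), against 25.8% of all genes. Their knockdown effect was called more negative on day 7 in 67 (85.9%, median difference -0.50), against 14.6% of all genes.

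Of 17 other mRNAs of the TOP class, 7 were higher (41.2%) and 3 lower (17.6%) on day 5, and 3 higher (17.6%) and 9 lower (52.9%) on day 7. The lower share on day 5 was near that of all genes, and the higher share on day 7 was below it. The elongation factors *Eef1b2* (0.46 ± 0.09) and *Eef1d* (0.46 ± 0.08) rose on day 5 and were not called on day 7. *Eef2*, which moves the ribosome along the mRNA, was higher on both days (0.32 ± 0.07 and 0.39 ± 0.03), as were *Eif4b* and *Tpt1*. *Hnrnpa1* (-0.56 on both days), *Nap1l1* and *Npm1* were lower on both days.

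Of 15 regulators of TOP mRNA translation, 3 were higher on day 5 (20%), and 12 were higher (80%) and 1 lower on day 7. *Eif4ebp1*, which when unphosphorylated holds back the cap-binding *Eif4e*, was higher on both days (1.16 ± 0.12 and 0.71 ± 0.04), as were *Eif4ebp2* (0.60 ± 0.06 and 0.98 ± 0.04) and *Akt1s1*, an inhibitory subunit of mTOR complex 1 (0.97 ± 0.26 and 0.83 ± 0.16). On day 7 *Mtor* (0.58 ± 0.06), *Tsc1* (0.50 ± 0.06), *Tsc2* (0.39 ± 0.10) and *Deptor* (0.79 ± 0.16) were called higher and *Eif4e* lower (-0.14 ± 0.05). Their day 5 values were 0.24, -0.06, 0.11, 0.24 and 0.00, none of them called. *Larp1* was higher on day 7 (0.18 ± 0.05). Among 8 chaperones and escorts of single ribosomal proteins, 1 was higher (12.5%) and 2 lower (25%) on day 5, near the shares of all genes, and 1 higher and 5 lower (62.5%) on day 7. Of the 8 paralogs tested, of which *Rps4l* and *Rps27l* are also members, none was called on day 5, with 1 at an unadjusted p under 0.05, and 6 were lower on day 7.

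**Figure D5:**
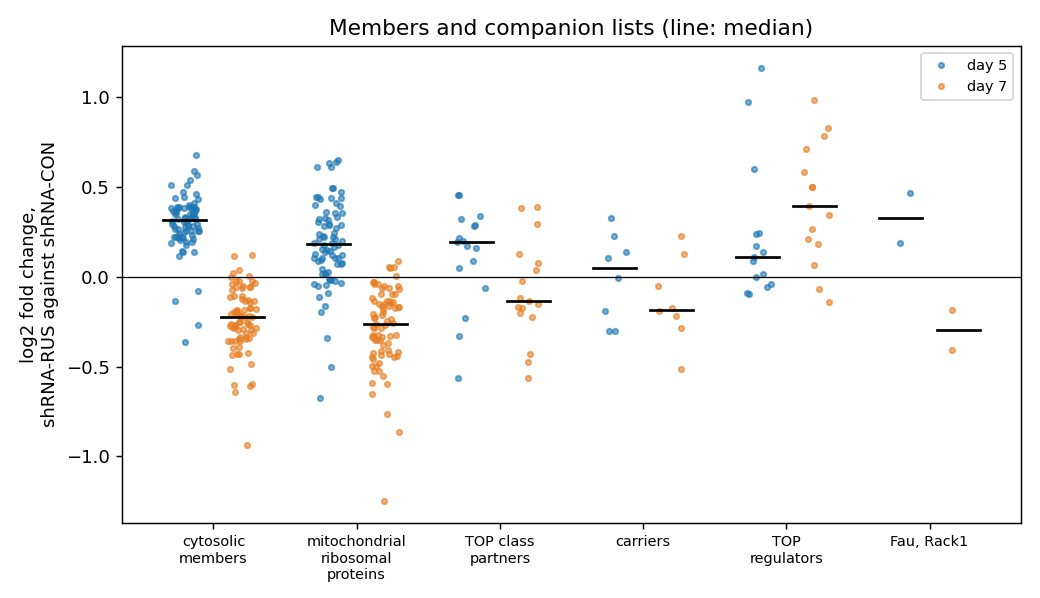
Log2 fold change of shRNA-RUS against shRNA-CON (y axis) for the 80 members and 5 lists of related genes on day 5 and day 7, 1 point per gene, with the median as a line. The members and the mitochondrial ribosomal proteins have medians of 0.31 and 0.18 on day 5 and -0.22 and -0.26 on day 7, and the regulators 0.11 and 0.39.

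How reads were assigned bears on single members, because ribosomal protein genes have many processed pseudogenes. The share of 50-base words of a member's transcripts that also occur in transcripts of other genes (GENCODE vM21) ran from 0 to 98.7% with a median of 50.3%. It was 74.3% for *Rpl18*, 16.2% for *Rpl39*, 43.9% for *Rpl41*, 82.6% for *Rpl23a* and 2.96% for *Rps3*, so that the levels of *Rpl18* and *Rpl23a* are uncertain in this respect. *Rpl18* also overlaps *Sphk2* on the opposite strand, and whether the counting used strand is not given in the sources used here. In the 40 members with under 50% shared words, 24 were higher on day 5 and 29 lower on day 7, and in the other 40, 21 were higher and 30 lower. The summed TPM of rows named as ribosomal protein pseudogenes, which are not among the members, came to between 4.20 and 4.51% of the members' summed TPM in the group means. Over the 80 members, transcript length had a Pearson r of 0.45 and a Spearman rho of 0.48 with the difference of the effect between the days, as a description, with shorter transcripts showing the more negative values. The part of length in the result was not tested.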

How the data were processed

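PolyA RNA of 16 libraries was sequenced (NextSeq 500). The authors aligned reads with STAR to mm10 with the GRCm38.99 transcript table, quantified them with RSEM and deposited TPM for each library, 1 table per day. Versions and the strand setting are not given in the sources used here. The deposited tables also hold the results of the authors' DESeq2 comparison (base mean, log2 fold change with its standard error, statistic, p-value, adjusted p-value), which were not used. They hold no counts, so depth is unknown and no counting interval is given.

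TPM was divided by median-ratio library factors, 0.1 was added and the log2 taken, so that fold changes of low genes are understated. Tested were genes averaging 0.1 TPM or more, by limma 3.58.1 in R 4.3.3 (lmFit, eBayes with a trend, two-sided, Benjamini-Hochberg over all genes, 0.05), within each day (8 libraries) or over 16 libraries for contrasts between days. For the latter, 106 rows whose symbols differed between the tables were left out, none of them a member. The fit was also run on simulated data with known fold changes, as a check of the code and not of these data.

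Groups followed the labels. The members and lists were chosen with earlier results of these data known. Named members are, per comparison, the 5 largest positive and 5 largest negative fold changes, the 3 most abundant, up to 10 with the smallest p for the difference between the days, those called in opposite directions on the 2 days (given as a count), and those next to the 10 TPM limit. A few genes are counted but not reported here by name. Alternatives were other pseudocounts, filters, scalings, a fold limit, no trend, a replicate block and leaving out each library. Positions come from GENCODE vM21 (GRCm38) and starts from RefSeq. Python 3.11.15, pandas 2.3.3 and matplotlib 3.10.9 were used.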

Additional observations from a re-analysis of the deposited data

Results flagged for a closer look

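The knockdown effect differed between the days for 76 members. Of these, 9 of the 10 with the smallest p had differences (day 7 minus day 5, log2) of -0.59 for *Rps3*, -0.77 for *Rpl37a*, -0.63 for *Rpl36a*, -0.54 for *Rpl3*, -0.60 for *Rpl35a*, -0.54 for *Rpl24*, -0.76 for *Rpl41*, -0.45 for *Rpl17* and -0.68 for *Rpl35*.

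A single library stood far from the other 3 of its group in 7 of 136 groups of 4 looked at, where chance marks about 1 in 20. In shRNA-RUS on day 5 replicate 4 was low for 5 members. It had 518 scaled TPM of *Rpl18* (others 626 to 643), 578 of *Rpl36* (others 1147 to 1197), 1377 of *Rplp1* (others 2595 to 2762), 1994 of *Rpl41* (others 2645 to 2708) and 1129 of *Rplp0* (others 1402 to 1458). In shRNA-RUS on day 7 replicate 1 was high for *Rpl6*, at 746 (others 690 to 695). In shRNA-CON on day 5 replicate 2 had a 60S to 40S ratio of 1.417 (others 1.439 to 1.442).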

How the results depend on the processing

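Day 5, 45 members higher and 1 lower: 27 were higher with no filter, with 75th percentile scaling and with eBayes without a trend, 23 with TPM as deposited, 21 when scaled to the other genes, 8 with quantile normalization and 12 with a replicate block. The 12 of the block (15%) stood against 9.88% of all genes called higher, and the 21 (26.25%) against 7.83%. Of the lower calls, 3 were made with TPM as deposited, with quantile normalization and when scaled to the other genes, and 0 with the block. Leaving out 1 library gave 21 to 72 higher and 0 to 1 lower. Day 7, 59 lower and 0 higher: 35 were lower with a fold of at least 1.2, and 7 were higher with quantile normalization and 1 with the filter at 1 TPM or the block. Without 1 library, 51 to 63 were lower and 0 to 1 higher, against 23.6 to 24.8% and 21.4 to 22.8% of all genes. Between the days, in shRNA-CON (50 lower, 0 higher) TPM as deposited gave 31 lower and 2 higher, scaling to the other genes 30 (37.5%, against 14.2% of all genes) and 2, and quantile normalization 20 and 8. In shRNA-RUS (80 lower, with *Rpl6l* among them as a description) quantile normalization gave 51 lower and 3 higher. The difference of the effects (76) fell to 30 with quantile normalization. Without 1 library these ranged over 42 to 61, 78 to 80 and 72 to 79. Of all genes, 19.8 to 22.5%, 24.6 to 25.9% and 12.9 to 16.3% were called lower in these fits. The cause was not tested. The share of TPM was 11.4% higher on day 5 and 24.5% higher after division by the library factor; without 1 library it was 8.87 to 15.9% on day 5 and -16.4 to -13.0% on day 7. Under quantile normalization the sign of the change between the days was checked for the 32 named members only. It turned for *Rpl10* (0.28), *Rps23* (0.10) and *Rps27* (0.19) in shRNA-RUS and for *Rpl35a* (0.12) and *Rps3* (0.11) in shRNA-CON. Same-numbered libraries did not deviate together (r from -0.10 to 0.03), and not every library correlated best with its own number. The labels do not say whether such libraries share a preparation, and these correlations, taken over all tested genes, cannot decide it. TPM gives no depth.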
